A study of Mus musculus with 5 samples.

Results

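The 9 genes examined here, Nkx2-5, Isl1, Mef2c, Osr1, Meis1, Meis2, Irx4, Hopx and Smyd1, encode factors of the heart fields, the pools of mesodermal progenitors that build the heart. They were listed by name, and the binding sites of 2 transcription factors, Hand1 and Foxf1, were collected around each of them. A site is 1 line of a peak list whose summit, the position of its highest signal, lay inside the gene or within 100 kb of either end. Of the 21887 protein-coding genes on the named chromosomes of the gene table, these are 9. Around them lay 1 of the 1134 Hand1 sites and 10 of the 5703 Foxf1 sites.

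The material was E14, an established line of mouse embryonic stem cells, carried through directed cardiac differentiation. They spent 48 h as embryoid bodies, then 40 h re-aggregated with VEGF, Activin A and BMP4 (the stage labelled MES), and, for the stage labelled CP, a further 32 h as a monolayer with VEGF, basic FGF and FGF10. Chromatin immunoprecipitation followed by sequencing (ChIP-seq) used an antibody against HA, a short peptide tag. The Hand1 list came from a line with HA knocked into Hand1, taken at MES. The Foxf1 list came from a line that overexpresses Foxf1-HA on induction, taken at CP. The inducer, the level of the overexpressed protein and the number of clones are not given in the sources used here. Each factor had 1 peak list, so no value below has a replicate error and none was tested. Factor, stage and mode of expression differ together between the lists and cannot be told apart.

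The heart forms from a first heart field, which gives the early heart tube and much of the left ventricle, and a second heart field, which adds the right ventricle, the outflow tract and parts of the atria. Hand1 is a basic helix-loop-helix factor that binds E-box sequences with a partner protein and acts in extraembryonic and cardiac mesoderm. Foxf1 is a forkhead factor of the lateral and splanchnic mesoderm that acts downstream of Hedgehog signalling. Nkx2-5, a homeodomain factor used by both fields, Irx4, a ventricular homeodomain factor, Hopx, a small homeodomain protein without DNA binding of its own, and Smyd1, a muscle histone methyltransferase, were counted as 4 first heart field or early myocyte genes. Isl1, the LIM-homeodomain marker of second heart field progenitors, Mef2c, a MADS-box factor with a well known second heart field enhancer, Osr1, a zinc finger factor of the posterior second heart field, and Meis1 and Meis2, TALE homeodomain cofactors, were counted as 5 second heart field genes. The labels give no such split.

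The 2 lists met at 1 place within these windows, which is 1 of 1 Hand1 sites and 1 of 10 Foxf1 sites. Over the whole lists, 17.6% of Hand1 sites overlapped a Foxf1 site and 3.24% of Foxf1 sites a Hand1 site. Upstream of Nkx2-5 the Hand1 and Foxf1 peaks overlapped at the promoter of Gm17382, a long noncoding RNA gene. Both summits lay inside the RefSeq promoter window of that gene (GRCm38.p6, chr17:26886197-26886496, minus strand, 250 bases before the transcription start and 50 bases from it on). The sequence is shown because it is the only place in these windows where peaks of the 2 lists overlap. The lists come from different lines and stages, so binding of both factors in the same cells was not tested. Capitals mark matches to any of 5 motifs searched on both strands.
Gm17382 promoter: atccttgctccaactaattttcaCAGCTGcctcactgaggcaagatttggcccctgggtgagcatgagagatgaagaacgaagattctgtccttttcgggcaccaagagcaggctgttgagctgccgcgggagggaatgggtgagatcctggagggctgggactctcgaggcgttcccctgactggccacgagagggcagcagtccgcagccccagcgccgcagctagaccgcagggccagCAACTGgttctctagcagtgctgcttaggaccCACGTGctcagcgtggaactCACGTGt
The Foxf1 summit fell on base 195 of this sequence, 56 bp upstream of the transcription start. The Hand1 summit fell on base 230, 21 bp upstream of it. All capitals are E-boxes (CANNTG), which begin at bases 24, 242, 274 and 294. Such a count of 4 or more E-boxes was held by 6.49% of all 32851 promoter windows, and 72.3% held at least 1. The window held no Hand-type E-box (CATCTG, a special case of CANNTG; in 17.2% of all promoter windows), no forkhead match (TGTTTA; 13.4%), no GATA match (AGATAA; 11.2%) and no MEIS match (TGACAG; 19.2%). A match is only a run of letters, and a missing match says nothing of the factor.

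A further Foxf1 peak counted at Nkx2-5 covered the promoter of another gene, Kifc5b, which encodes a kinesin motor protein. The 250 bases before its transcription start (GRCm38.p6, chr17:26916841-26917090, plus strand) are shown because the whole stretch lies in the peak.
Kifc5b upstream: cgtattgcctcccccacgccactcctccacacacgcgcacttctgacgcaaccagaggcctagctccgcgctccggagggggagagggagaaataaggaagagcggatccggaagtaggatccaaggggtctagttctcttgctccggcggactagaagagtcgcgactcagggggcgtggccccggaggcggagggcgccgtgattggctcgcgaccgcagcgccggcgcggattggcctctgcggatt
The Foxf1 summit lay 275 bp upstream of the start, just before this stretch. It has no capitals because none of the 5 motifs occurs in it. Its GC content was 66.0%, against 59.7% for the Gm17382 window. Foxf1 peaks overlapped 3.80% of all promoter windows and Hand1 peaks 0.441%.

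Of the 9 genes, 1 had a Hand1 site, where 9.90% of all protein-coding genes had one by the same rule. A Foxf1 site was found at 6 of the 9, against 53.3% of all protein-coding genes. Sites of both lists were found at 1 gene, against 7.65%, and a Hand1 site that overlaps a Foxf1 site also at 1, against 2.40%. With 9 genes these counts lie near the background, and nothing is read from them about heart field genes as a class. The 10 Foxf1 sites came to 0.413 per 100 kb of window (95% exact Poisson interval 0.198 to 0.76, counting error only), and the windows of all protein-coding genes to 0.502. For Hand1 the 1 site came to 0.0413 per 100 kb (interval 0.00105 to 0.23), and all protein-coding genes to 0.113. In the all-gene values the windows of neighbouring genes overlap and a site counts at each gene: the 5703 Foxf1 sites gave 27266 counts. These values are therefore not densities along the genome. The 2 lists were not compared in number, because the lowest −log10 q-value (the caller's adjusted significance) was 5.01 for Hand1 and 10.0 for Foxf1.

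**Figure D1:**
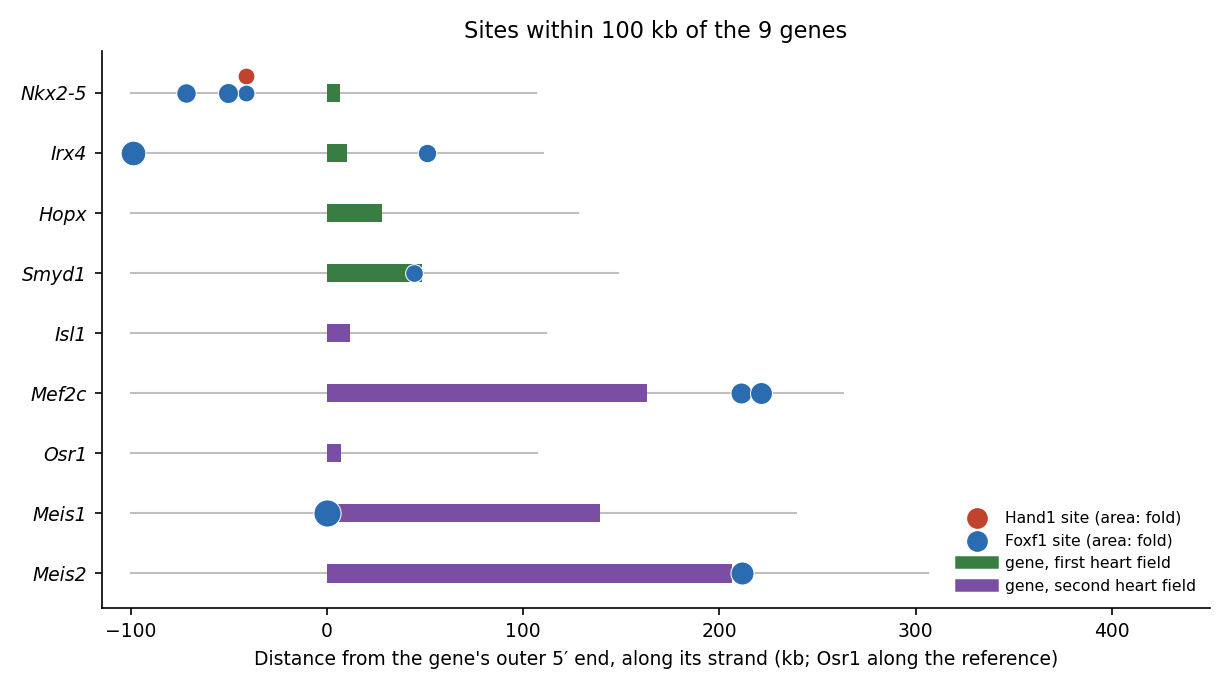
Sites within 100 kb of each of the 9 genes. Each row is 1 gene with its body as a bar, the x axis is the distance in kb from its outer 5′ end along its strand (Osr1 along the reference), and the area of a dot is the fold enrichment of the site. The only Hand1 site lies beside a Foxf1 site upstream of Nkx2-5, and Isl1, Osr1 and Hopx have no dot.

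Nkx2-5 (chromosome 17, 26838664 to 26844988, minus strand) had the most sites, 1 of Hand1 and 3 of Foxf1. At least 3 Foxf1 sites were found at 17.6% of protein-coding genes. All 4 sites lay on the upstream side of the gene. The shared site (Hand1 peak 26886172 to 26887052, Foxf1 peak 26886127 to 26886549) lay 41.3 kb from the gene, and its summits were intergenic. In both lists it was among the lower peaks. Its Hand1 fold enrichment, the authors' ratio of signal to local background at the summit, was 5.47, and 88.2% of the Hand1 list was at least as high. Its −log10 q-value of 5.11 was just above the lowest of that list. The Hand1 summit was inferred to hold 14 fragments (95% exact Poisson interval 7.65 to 23.5), which puts the fold between 3.15 and 8.92 by counting error alone. Its Foxf1 fold was 5.51 (3.78 to 7.79), from 30 fragments over a control level of 4.63, and 94.7% of the Foxf1 list was at least as high. The control level, the background inferred at the summit, was not high in either list by the limit of 5 times the lowest.

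The other Foxf1 sites upstream of Nkx2-5 were of middling height. The site at 50.8 kb (26895533 to 26895952) had a fold of 7.74 and lay between genes. The site at 71.8 kb (26916660 to 26917373) had a fold of 7.30 and is the one at the Kifc5b promoter. All 4 sites lay nearer to Kifc5b than to Nkx2-5: the shared site was 30.8 kb from Kifc5b, and the other distances were 21.3 kb and 0.275 kb. Giving each site only to its nearest protein-coding gene therefore left Nkx2-5 with none.

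Irx4 (chromosome 13, 73259589 to 73269622, plus strand) had 2 Foxf1 sites, a count reached by 31.0% of protein-coding genes, and its nearest Hand1 summit lay 896.5 kb away. The upstream site (73160181 to 73160724) was the second highest of the 10. It had a fold of 11.7 (8.50 to 15.7) from 42 fragments, and 9.10% of the Foxf1 list was at least as high. At 99.1 kb from the gene it was also the last site inside the limit, and Irx4 was the nearest protein-coding gene. The downstream site (73310161 to 73310903, 41.1 kb from the gene) had a fold of 6.53 and lay only 9.12 kb from Ndufs6, which encodes a subunit of mitochondrial complex I.

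Smyd1 (chromosome 6, 71213940 to 71262281, minus strand) held the only site inside one of the 9 genes. This Foxf1 peak (71217782 to 71218453) had its summit 44.1 kb downstream of the 5′ end and 4.21 kb before the 3′ end. The gene table does not say whether that is exon or intron. The fold was 6.03 (4.13 to 8.53) from 30 fragments, and 88.0% of the list was at least as high. A Foxf1 summit inside the gene was found for 11.0% of all protein-coding genes. The nearest Hand1 summit lay 813.7 kb away.

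Hopx (chromosome 5, 77086986 to 77115123, minus strand) had no site within 100 kb in either list. Its nearest sites were 1 overlapping pair 225.3 kb downstream, inside the gene Cracd. There the Hand1 peak (76861383 to 76861874) had a fold of 13.6 from 30 fragments, and 22.4% of the Hand1 list was at least as high. The Foxf1 peak (76861470 to 76861951) had a fold of 7.93 from 26 fragments. The 2 summits were 76861637 and 76861650. Outside the limit, the closest site to any of the 9 genes was a Foxf1 site 178.8 kb upstream of Smyd1 (fold 6.94), at the promoter of Rmnd5a.

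Among the second heart field genes, Meis1 (chromosome 11, 18880428 to 19019651, minus strand) had the highest site of the 10. The Foxf1 peak (19019606 to 19020018) overlapped the outer 5′ end of the gene, with its summit 0.126 kb beyond it and 0.808 kb upstream of the start in the promoter table. The fold was 14.2 (10.4 to 19.0) from 44 fragments, with a −log10 q-value of 37.4. It ranked 214 of 5703 in the list. A Foxf1 summit as near to the gene was found for 12.6% of protein-coding genes. The next protein-coding gene, Spred2, was 904.7 kb away, and the nearest Hand1 summit 3580 kb.

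Meis2 (chromosome 2, 115861264 to 116067537, minus strand), the paralog of Meis1, had its 1 Foxf1 site at the other end. The peak (115855749 to 115856188) lay 5.31 kb beyond the 3′ end and 211.6 kb from the 5′ end. Its fold was 10.2 (6.93 to 14.5) from 29 fragments, and 16.5% of the list was at least as high. The 2 paralogs thus each had 1 Foxf1 site above the list's median of 7.62, in different positions relative to the gene.

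Mef2c (chromosome 13, 83504017 to 83667079, plus strand) had 2 Foxf1 sites, both downstream and both inside long noncoding RNA genes. The first (83715015 to 83715329), 48.1 kb from the gene and inside Gm52046, had a fold of 8.51 (5.47 to 12.7) from 22 fragments. The other (83725056 to 83725597), 58.1 kb away and inside C130071C03Rik, had a fold of 9.26 (6.39 to 13.0) from 31 fragments. Mef2c was the nearest protein-coding gene of both, and the next, Tmem161b, was 507.1 kb and 497.1 kb away. No site of either list lay within the gene body or upstream of it within 100 kb.

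Isl1 (chromosome 13, 116298270 to 116309688, minus strand) and Osr1 (chromosome 12, 9574442 to 9581500) had no site in either list. The nearest Foxf1 summit was 1293 kb from Isl1 and 522.2 kb from Osr1. A Foxf1 summit at least as near was found for 91.7% and 81.3% of all protein-coding genes, so both lie among the genes far from any Foxf1 site. The nearest Hand1 summits were 3289 kb and 2693 kb away. A list gives only peaks past its limit, so weaker signal at these genes was not seen here.

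**Figure D2:**
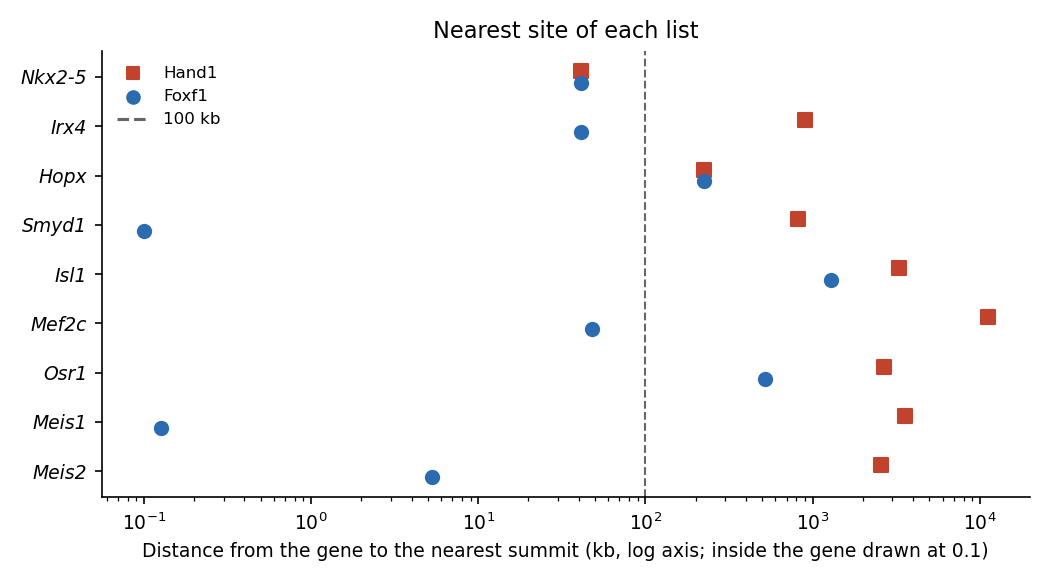
Distance in kb, on a log axis, from each gene to the nearest Hand1 summit (squares) and Foxf1 summit (circles), with the 100 kb limit as a dashed line and a summit inside the gene drawn at 0.1. Hand1 falls inside the limit at Nkx2-5 alone of the 9, and the 2 lists coincide at Nkx2-5 and at Hopx.

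The heights of the 10 Foxf1 sites were set beside their whole list. Their median fold was 8.12 and that of the list 7.62, and 6 of the 10 were above the list's median. The folds ran from 5.51 to 14.2, where the middle of the list, from its lower to its upper quartile, ran from 6.65 to 9.16. Of the 10 summits, 5 were upstream of the gene, 4 downstream and 1 inside. A summit inside a protein-coding gene was the state of 1 of the 10, against 49.4% of the Foxf1 list on the named chromosomes, and a summit within 1 kb of an end of a protein-coding gene of 2, against 25.4%. The windows add 100 kb on either side of each gene, while the list has no such limit, so these shares are not like for like. With 10 sites, nothing is read from them. None of the 11 sites had a high control level, which 3.65% of the Foxf1 and 11.7% of the Hand1 list had.

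**Figure D3:**
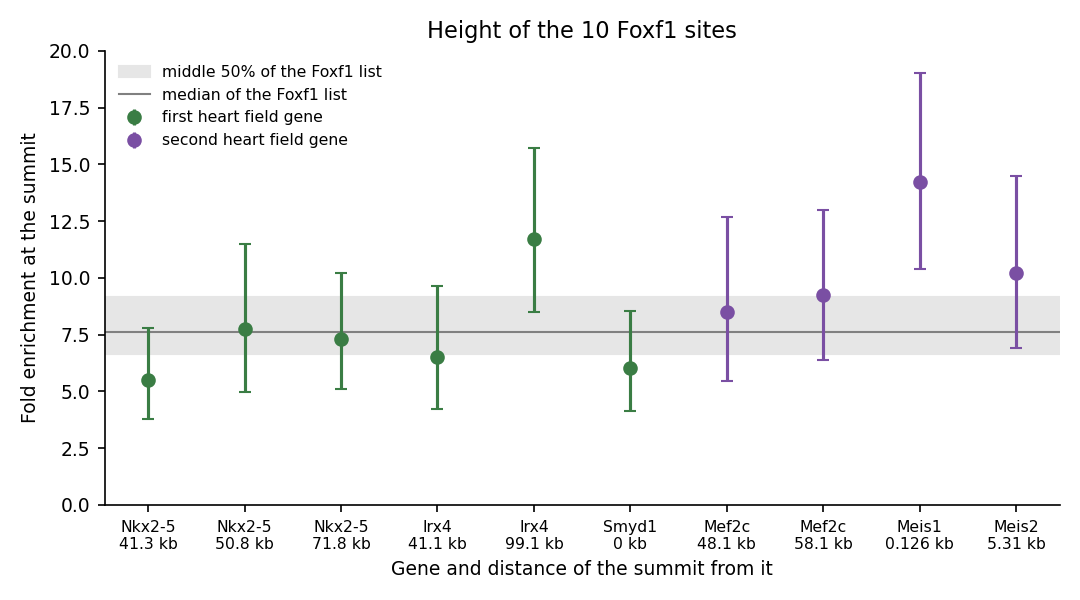
Fold enrichment of the 10 Foxf1 sites, with 95% exact Poisson intervals for the fragments at the summit as bars, the median of the list as a line and its middle 50% as a band. The sites of second heart field genes lie between 8.51 and 14.2, and those of first heart field genes between 5.51 and 11.7, with most intervals overlapping.

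Foxf1 sites numbered 6 at the 4 first heart field genes and 4 at the 5 second heart field genes. Per 100 kb of window this was 0.672 (interval 0.247 to 1.46) and 0.262 (0.0714 to 0.671), a difference of -0.41, second minus first, whose 95% counting half-width was 0.596. Nkx2-5 gave 3 of the 6 sites, and without it and Mef2c, which both fields use, the densities were 0.437 and 0.172. When each site was given only to its nearest protein-coding gene, 2 sites remained for the first heart field genes and 4 for the second, and the order turned to 0.224 against 0.262. When only sites whose −log10 q-value reached 20 were kept it also turned, to 0.112 against 0.131. With Nkx2-5 counted among the second heart field genes the densities were nearly level, at 0.437 and 0.404, a difference of -0.0332. Windows of 50 kb (0.609 and 0.292) and 200 kb (0.532 and 0.158) kept the first heart field genes higher. The remaining 3 alternatives removed no Foxf1 site at these genes and say nothing of the order. In height the order was the opposite: the median fold was 9.73 at second heart field genes, with 4 of 4 sites above the list's median, and 6.92 at first heart field genes, with 2 of 6. Only 2 of those 6 sites had the member as nearest protein-coding gene, with folds of 11.7 (Irx4) and 6.03 (Smyd1), against 4 of 4 second heart field sites. Sites are not replicates of a field, and the order in height was not tested. For Hand1 the 1 site fell to a first heart field gene only because Nkx2-5 was counted there.

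**Figure D4:**
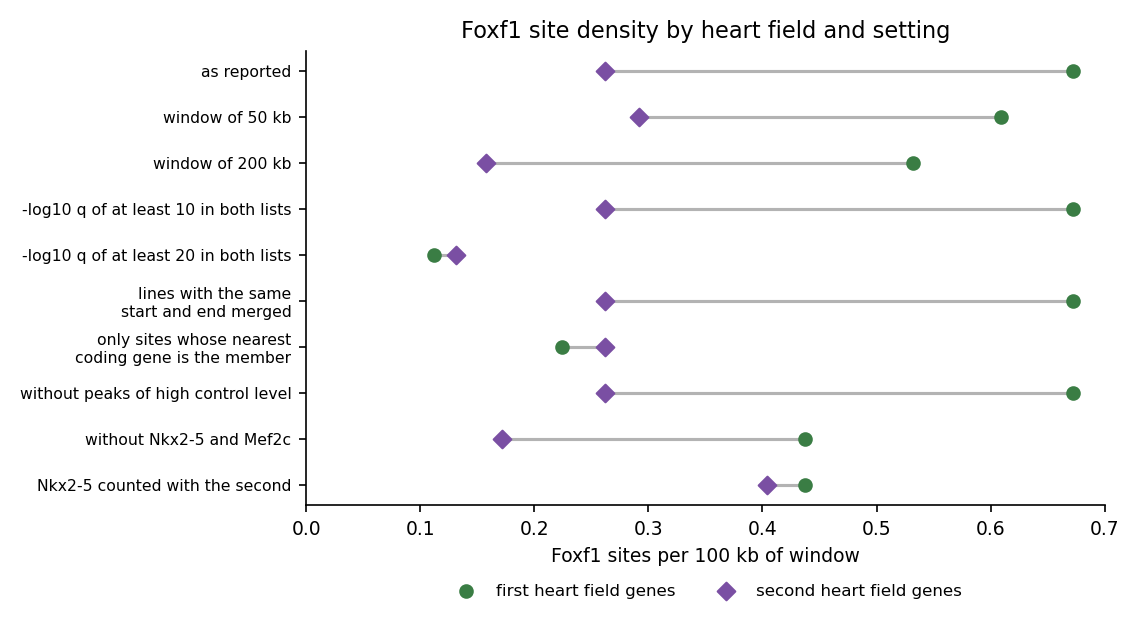
Foxf1 sites per 100 kb of window at first (circles) and second (diamonds) heart field genes, as reported and under each alternative. The first heart field genes are higher as reported (0.672 against 0.262) and lower with sites given to the nearest coding gene or where the −log10 q-value had to reach 20.

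The promoters of the 9 genes were examined in the same table of sequences. It held 11 promoter windows of 8 of the genes, none of them for Osr1, and no peak of either list overlapped any of them. The Meis1 window was that of the listed start, 0.808 kb from the Foxf1 summit, so it did not cover the Foxf1 peak at the outer 5′ end of that gene. Of these 11 windows, 8 held an E-box, where 72.3% of all promoter windows did. A Hand-type E-box was in 1 (Mef2c; 17.2% of all windows), a GATA match in 1 (Isl1; 11.2%), a MEIS match in 2 (Nkx2-5 and Smyd1; 19.2%) and a forkhead match in 0 (13.4%). With 11 windows these counts lie near the shares over all promoters, and nothing is read from them.

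Other heart genes and the paralogs of the 9 were counted by the same rule. Of 32 other heart genes, 10 had sites of both lists (among them Hand1, Mesp1, Srf, Tbx1, Tbx2, Tbx3, Wnt5a and Wnt11), 1 had a Hand1 site alone, 13 a Foxf1 site alone and 8 neither. This is a Hand1 site at 34.4% and a Foxf1 site at 71.9% of that list. The list was chosen with earlier results of these data known, and it includes Hand1, the gene that carries the tag. Nothing is therefore read from these shares about heart genes. The 9 genes gave 11.1% (1 gene) and 66.7% (6 genes). All protein-coding genes gave 9.90% and 53.3%, and 7.65% of them had sites of both lists. The T-box genes Tbx2 and Tbx3 had 4 and 3 Hand1 sites, and 4 and 1 Foxf1 sites. Of 21 paralogs, 0 had a Hand1 site and 10 (47.6%) had a Foxf1 site. Those 10 were Nkx2-2, Nkx2-3, Nkx2-6, Mef2a, Mef2b, Mef2d, Irx3, Irx5, Smyd2 and Smyd5. Of these, Irx3 and Irx5 were also counted among the 32 other heart genes. Neighbouring genes can share a site, and whether these lists differ from the 9 genes was not tested. The pair of counts seen at Nkx2-5, 1 Hand1 and 3 Foxf1 sites, was shared by 195 other protein-coding genes, in alphabetical order from 1110004F10Rik, 1700016D06Rik, 4930564D02Rik, A930017K11Rik and Abca4 on.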

How the data were processed

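Peak lists of 2 of the 5 samples were used, 1 for Hand1-HA at MES and 1 for Foxf1-HA at CP (the sample labelled replicate 1; whether its peaks were called on pooled libraries is not given in the sources used here). The other Foxf1 library and the 2 input libraries were not analysed here. Per the submitters' processing notes, which give no role or order, the tools were Trim Galore 0.6.6, Bowtie2 2.3.4.3, SAMtools 1.9, deepTools 3.5.0 and MACS2 2.2.7.1, and the build mm10. The deposited lists are in narrowPeak layout: the fold enrichment of the summit is the authors' ratio, on a linear scale, and its p-value and q-value are the authors' deposited −log10 values. The deposited score was not used. These values rank peaks within a list only.

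Each line counted as 1 site. Genes came from the RefSeq table of GRCm38.p6, the same build as mm10, in which all 9 symbols and all 51 comparison genes matched. Gene strands and promoter sequences came from RefSeq's promoter windows. Depth is not in the lists. The fragments at a summit (k) and the control level (λ) were solved from fold = (k + 1)/(λ + 1) and a Poisson tail of more than k at mean λ, over whole k, and the authors' −log10 p was met within 0.00066 (Hand1) and 0.002 (Foxf1). The solution and the counting were checked on simulated data, and overlap (at least 1 bp) and motif search on small cases with known answers. Intervals are 95% exact Poisson intervals and cover counting error only, since reads without molecular identifiers are not independent molecules. The counting half-width of a density difference is instead a normal approximation from the counts, in which a group without a site adds no error. Python 3.11.15, pandas 2.3.3 and scipy 1.17.1 were used.

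The members, the gene lists and the field split were chosen with earlier results of these data known. The genes named were the 9, with each of their sites, other heart genes with sites of both lists (some are not reported here), paralogs with sites of either, and genes with the same pair of counts as the member with the most sites. No test was run, because there was 1 list per factor. The alternatives were windows of 50 kb and 200 kb, stricter q-value limits, merged lines, sites given to the nearest gene, no peaks of high control level, other field assignments and other overlap rules.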

Additional observations from a re-analysis of the deposited data

How the results depend on the processing

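Of 91 alternatives over 11 results, 61 kept the value within 1.5 times or, for density differences, within the counting half-width, 27 moved it and 3 turned its sign. The half-width was larger in size than the difference for Hand1 (0.22 against -0.112) and for Foxf1 (0.596), so a difference that vanished was counted as kept. This happened for Hand1 at −log10 q-value limits of 10 and 20, by nearest gene, and without Nkx2-5 and Mef2c. The second heart field Hand1 count was already 0, so settings that only remove sites could not change it. The 61 therefore cannot be read as a measure of stability. Merging lines and leaving out peaks of high control level removed no site at the 9 genes, and a −log10 q-value limit of 10 removed no Foxf1 site there, so these say nothing of those results. The single Hand1 site decided all Hand1 results. The Hand1 counts of sites, of genes, of first heart field sites and of overlaps with Foxf1 fell from 1 to 0 where the −log10 q-value had to reach 10 or 20, and when sites went only to their nearest protein-coding gene. The first heart field count was also 0 without Nkx2-5 and Mef2c, or with Nkx2-5 moved to the second heart field genes, whose count then rose from 0 to 1 and turned the Hand1 density difference from -0.112 to 0.0577.

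The 10 Foxf1 sites became 6 within 50 kb, 6 by nearest gene and 3 where the −log10 q-value had to reach 20, which left 3 of the 6 genes with a site. First heart field sites (6) became 3 within 50 kb, 1 at that q-value limit, 2 by nearest gene, and 3 without Nkx2-5 and Mef2c or with Nkx2-5 moved. Second heart field sites (4) became 2 at that limit, 2 without Nkx2-5 and Mef2c and 7 with Nkx2-5 moved. The Foxf1 density difference of -0.41 turned to 0.019 at that limit and 0.0379 by nearest gene, and shrank to -0.0332 with Nkx2-5 moved. These alternatives keep fewer sites or move a gene between groups by construction. With a single list for each factor, neither a paired analysis nor leaving out a replicate could be run. Depth limits the folds: the 14 fragments of the Hand1 site leave a range of 3.15 to 8.92.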
